A study of Mus musculus with 16 samples.

Results

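The genes described here are 29 markers of forebrain neurons, grouped as 10 markers of cortical excitatory neurons, 10 of inhibitory neurons and 9 of striatal neurons. A member was measured by the probe set whose only gene symbol is that gene, and 28 of the 29 had one, each with 1 probe set, among the 19938 genes tested. Adora2a had no probe set with that single symbol. The samples were whole brains of 8-week-old male mice, on 16 arrays in 4 groups of 4. Naive C57BL/6 mice and naive mice labelled TNF knockout had no operation. Mice of the same labels had their middle cerebral artery closed permanently, an experimental stroke, and were sampled at 24 h. Because no group was sham operated, the stroke groups differ from the naive groups by surgery as well as by occlusion. Sources used here do not give the knockout allele, its breeding background or the number of animals per array. The replicate numbers in the labels do not say that each array was a separate mouse, so the p-values may measure only the spread between these samples.

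Cortical excitatory neurons release glutamate and are told apart by layer through transcription factors such as Cux1 and Cux2 (upper layers), Rorb (layer of thalamic input) and Fezf2 and Bcl11b (deep layers). Inhibitory neurons make GABA with the enzymes encoded by Gad1 and Gad2, load it into vesicles with the transporter encoded by Slc32a1, and divide into classes by the proteins and peptides they carry. The striatum lies in the territory of the middle cerebral artery and consists mostly of GABA-releasing projection neurons that carry either the D1 or the D2 dopamine receptor. Whole brain also holds tissue outside that territory, and in such bulk tissue fewer cells of a type and less RNA per cell cannot be told apart.

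The targeted gene went against its label. Tnf read 5.01 to 5.72 in naive C57BL/6 mice and 5.28 to 5.68 after stroke, against 6.14 to 6.58 and 6.60 to 6.99 in the arrays labelled TNF knockout, so these groups are named by their label only. Whether the Tnf probe set lies in the deleted stretch is not known here, and outside that stretch it would check nothing. Values are the deposited log2 summaries, in which 1 unit is a doubling, and they carry no order between genes. Array medians were 6.01 to 6.05, and arrays of 1 group correlated at 0.991 to 0.996. All 18 listed general neuron genes had a probe set, and whether each of them or of the members lay above background was not tested. Naive C57BL/6 array 1 was the highest of the 16 arrays in 6 genes of the cerebellum, singled out after their values were seen. Gabra6, a GABA-A receptor subunit of granule neurons, read 7.99 on it and 3.93 to 4.88 on the other 15 arrays, which lies below the array medians. Cbln3, also of granule neurons, read 7.45 against 4.71 to 5.55, and Car8 of Purkinje neurons read 9.13 against 6.58 to 7.31. Cbln1 read 8.24 against 6.89 to 7.46, and Pcp2 read 5.92 against 5.05 to 5.48. Barhl1, at 5.75 against 4.66 to 5.68, was highest by a narrow margin only. The labels do not state how much cerebellum a sample held. Without that array, the same 2 members passed between labels over both conditions (Gad2 and Reln), and 0 passed in each of the other comparisons. All C57BL/6 arrays carry the sample name prefix KL42. The arrays labelled TNF knockout carry KL76 (naive 1 to 3, stroke 1) or KL82 (naive 4, stroke 2 to 4). What a prefix stands for is not given in the labels. KL42 cannot be told apart from the C57BL/6 label, and within the knockout label the prefixes are uneven between naive and stroke arrays.

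At 24 h after the occlusion the neuron markers differed little from naive mice. Over both genotype labels their log2 changes ran from -0.28 (Lamp5) to 0.06 (Pdyn), and 0 of 28 passed an adjusted p of 0.05 in limma, where 2.8% of all genes did. At an unadjusted p under 0.05 there were 5, all lower: Lamp5, Pvalb, Reln, Penk and Pde10a, where 7.71% of all genes were lower at that threshold. The lowest end of any member's 95% interval was -0.46, a change of -27.5%, and the highest end was 0.22. All 28 intervals lay within 0.5 of 0, as did those of 97.8% of all genes. The median change was -0.09 for the cortical, -0.07 for the inhibitory and -0.03 for the striatal members, against 0.00 over all genes tested.

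Within each label the counts past the adjusted threshold were as low. In C57BL/6 mice 0 of 28 passed the adjusted threshold in limma (all genes 1.68%), and Cux2, Lamp5 and Reln were lower at an unadjusted p under 0.05 (all genes lower 7.34%). Reln and Drd2 were lower without overlap between the groups (all genes 3.23%). In the arrays labelled TNF knockout 0 of 28 passed in limma (all genes 0.642%), and Cux1, Bcl11b, Rorb and Lamp5 were lower at an unadjusted p under 0.05 (all genes lower 4.17%). Cux1 and Penk were lower there without overlap (all genes 3.07%). The change lay below 0 for 17 of 28 members in C57BL/6 mice (all genes 51.4%) and for 26 of 28 in the arrays labelled TNF knockout (all genes 50.1%), the exceptions there being Drd1 and Pdyn. Within KL76, which has 1 stroke array, 8 of 10 cortical, 8 of 10 inhibitory and 7 of 8 striatal members lay below 0. Within KL82, which has 1 naive array, these counts were 9, 8 and 2. The share over all genes was not counted within a prefix, so these counts are not read as a result about the members.

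**Figure D1:**
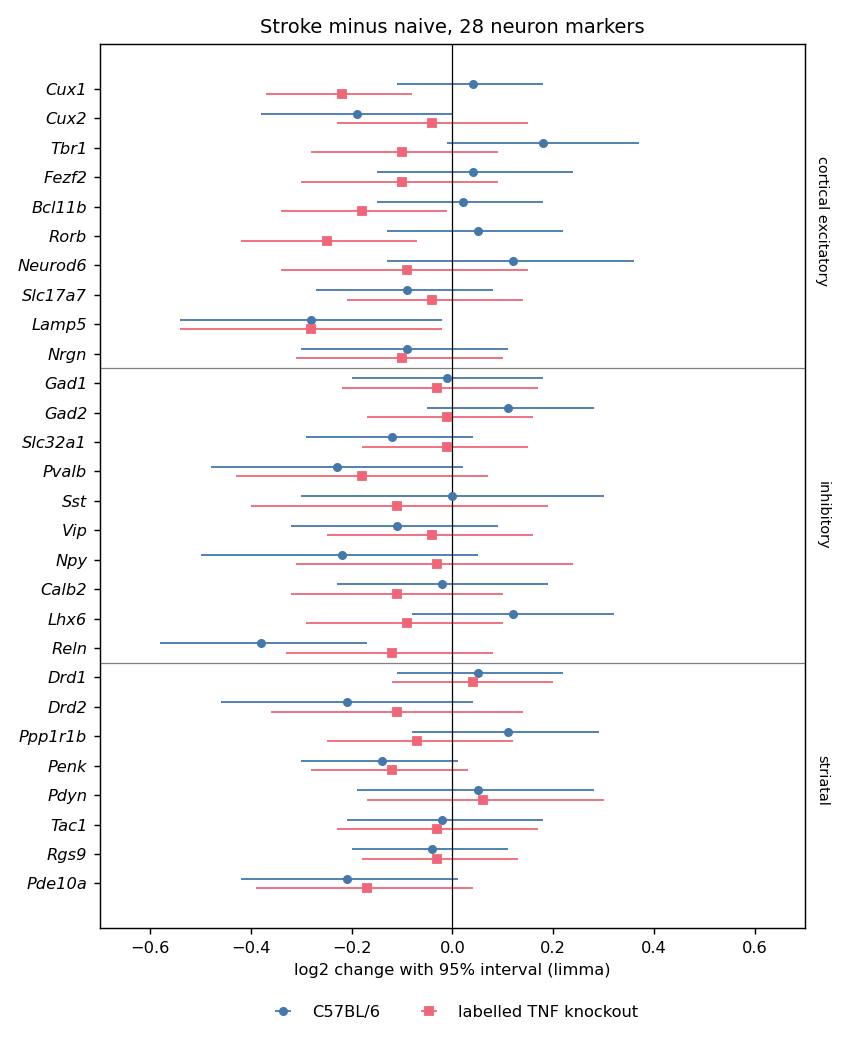
Log2 change from naive to 24 h after stroke (horizontal axis) for the 28 measured neuron markers, in C57BL/6 mice (circles) and in arrays labelled TNF knockout (squares). Lines are 95% intervals from limma with 4 arrays per group. Most intervals cross 0, Reln in C57BL/6 mice lies farthest below it at -0.38, and the cortical transcription factors from Cux1 to Neurod6, other than Cux2, lie above 0 in one label and below it in the other.

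The tilt below 0 in the arrays labelled TNF knockout was not limited to neurons. In the arrays labelled TNF knockout 16 of 18 general neuron genes lay below 0 after stroke, as did 18 of 20 further cortical markers, 10 of 12 oligodendrocyte and 11 of 12 choroid plexus and ependyma genes. In C57BL/6 mice the same lists counted 9, 10, 5 and 5. The further inhibitory and further striatal lists counted 15 of 22 and 19 of 27 below 0 under the knockout label. For other brain regions and resting astrocytes the counts there were 15 of 26 and 10 of 14. In C57BL/6 mice those lists counted 16, 15, 17 and 6 (all genes 51.4%, and 50.1% under the knockout label). Lists of glial and immune activation moved far more. Over both labels 15 of 20 reactive astrocyte genes (median change 0.72) and 13 of 19 activated microglia and macrophage genes (median 0.64) rose past an adjusted p of 0.05 in limma, where 1.78% of all genes were higher. Those with the smallest p were Lcn2, Cxcl10, Serpina3n and Vim, at 3.16, 2.79, 1.79 and 0.76, and Ccl12, Cd68, Ccl3 and Gpr84, at 3.45, 0.84, 3.32 and 1.42. Gjb6, the connexin 30 of astrocytes, was the 1 of 14 resting astrocyte genes past the threshold, at 0.33 ± 0.08. The reactive astrocyte list, summed on the linear scale, read 1554 to 1704 in naive C57BL/6 arrays and 2664 to 4153 after stroke. Under the knockout label it read 1585 to 1755 naive and 3266 to 3923 after stroke. For the microglia and macrophage list the sums were 4685 to 5416 naive and 5731 to 6959 after stroke in C57BL/6 mice. Knockout-labelled sums were 5029 to 5259 and 5089 to 6447, which overlap. The mean log2 level of that list did not overlap, at 5.52 to 5.65 naive and 6.26 to 6.5 after stroke under the knockout label and 5.46 to 5.58 and 6.28 to 6.77 in C57BL/6 mice. The part of these cells' RNA in the neuron markers' values was not tested.

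**Figure D2:**
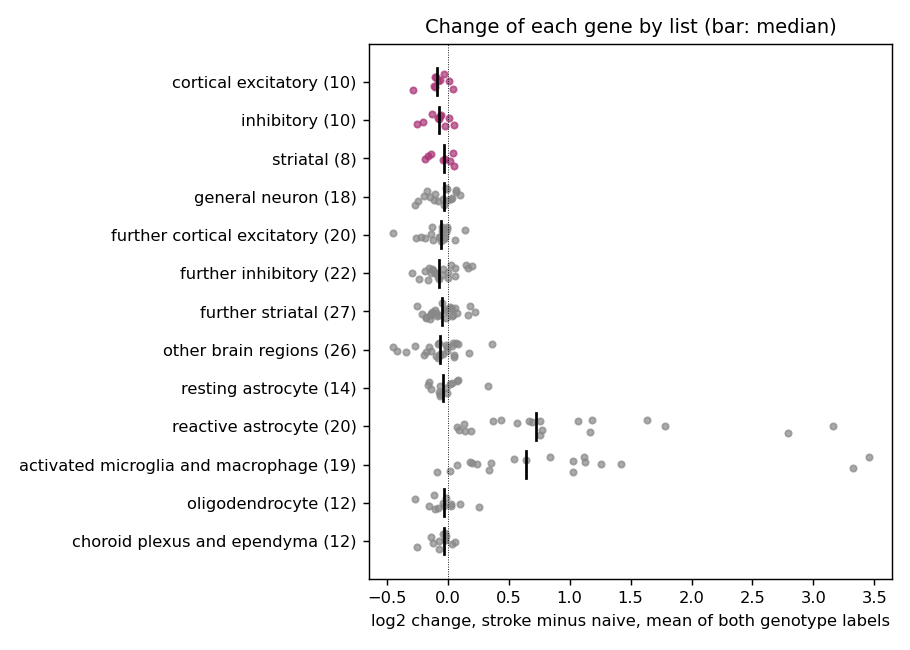
Log2 change from naive to 24 h after stroke, mean of both genotype labels (horizontal axis), of each gene in the 3 groups of neuron markers and in 10 further lists, with the number of genes measured in brackets. Each point is 1 gene and each bar the list's median. The neuron markers spread from -0.28 to 0.06 around medians of -0.09, -0.07 and -0.03, while the reactive astrocyte and the activated microglia and macrophage lists have medians of 0.72 and 0.64.

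Between the genotype labels, 2 inhibitory markers differed. Gad2 and Reln were higher in the arrays labelled TNF knockout over naive and stroke groups together, and they were the only 2 of 28 members past the adjusted threshold in limma, where 2.62% of all genes passed (1.35% higher). At an unadjusted p under 0.05, Gad1, Rorb and Rgs9 were also higher (all genes higher 9.76%) and Nrgn was lower (all genes lower 9.6%). The median difference was 0.11 over the inhibitory members, 0.01 over the cortical and 0.01 over the striatal members, and -0.01 over all genes tested. Over the 22 further inhibitory genes it was 0.01.

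In the naive groups alone 0 of 28 members passed in limma (all genes 0.386%), with Cux1, Bcl11b, Rorb, Gad1 and Gad2 higher at an unadjusted p under 0.05 (all genes higher 8.43%). Rorb, Gad2 and Rgs9 were higher there without overlap, as 4.5% of all genes were. After stroke 0 of 28 passed in limma (all genes 0.436%). Gad1, Gad2 and Reln were higher at an unadjusted p under 0.05 (all genes higher 5.46%), and Nrgn was lower (all genes lower 5.81%). Gad2 and Reln were higher without overlap after stroke (all genes 3.04%). Comparisons that share a group also share its arrays, so the stroke and genotype differences of a member are not independent of each other.

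**Figure D3:**
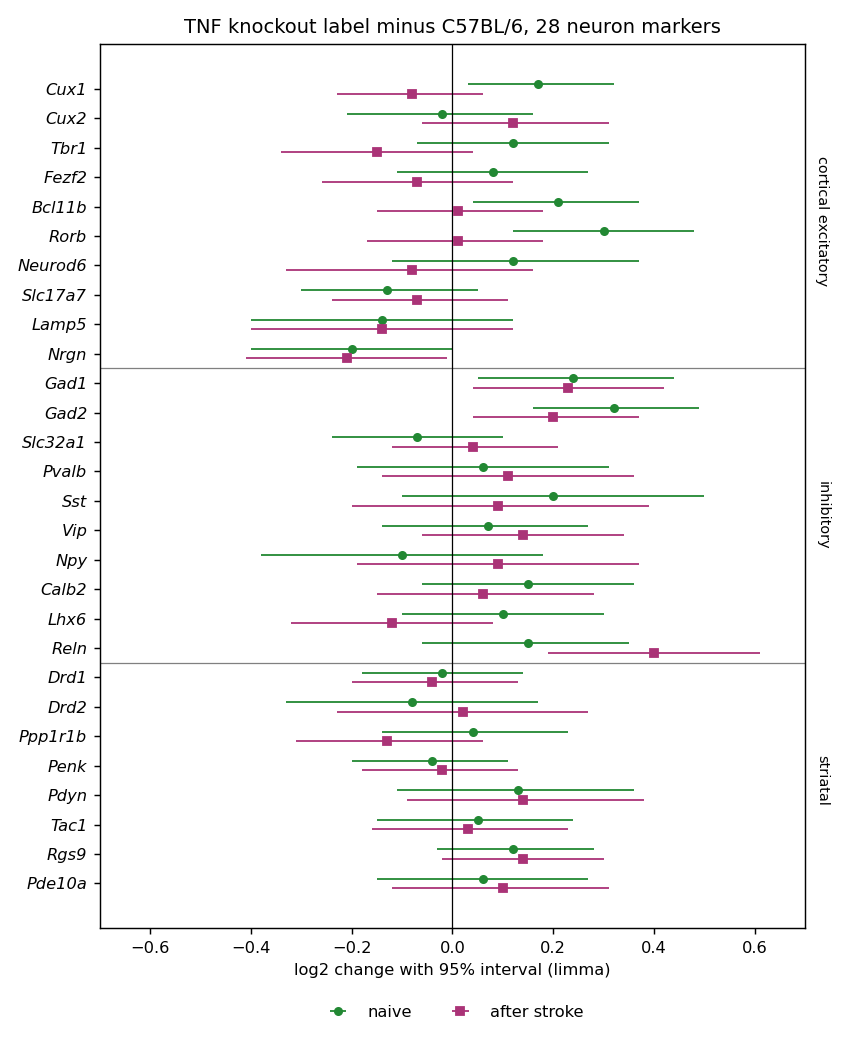
Log2 difference between arrays labelled TNF knockout and C57BL/6 arrays (horizontal axis) for the 28 measured neuron markers, in naive mice (circles) and after stroke (squares). Lines are 95% intervals from limma with 4 arrays per group. Gad1 and Gad2 lie above 0 in both conditions, Nrgn lies at -0.20 and -0.21, and Reln is farthest from 0 after stroke at 0.40.

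Among the inhibitory markers, the 2 forms of glutamic acid decarboxylase, which turns glutamate into GABA, are encoded by Gad1 and Gad2. Reln encodes reelin, a secreted protein that guides neuron positioning in development and is made by a class of cortical inhibitory neurons in the adult, and also by other cells such as cerebellar granule neurons. Their promoters are shown because these 3 genes had the smallest p among the members between genotype labels. Each covers 250 bases before to 50 after the gene's start in RefSeq (GRCm38.p6), printed 5′ to 3′ on the gene's own strand. Capitals mark GGGCGG or its reverse complement CCGCCC, the core of a GC box. The windows are chr2:70561879-70562178 (plus strand) for Gad1, chr2:22622077-22622376 (plus strand) for Gad2 and chr5:22344656-22344955 (minus strand) for Reln.
Gad1: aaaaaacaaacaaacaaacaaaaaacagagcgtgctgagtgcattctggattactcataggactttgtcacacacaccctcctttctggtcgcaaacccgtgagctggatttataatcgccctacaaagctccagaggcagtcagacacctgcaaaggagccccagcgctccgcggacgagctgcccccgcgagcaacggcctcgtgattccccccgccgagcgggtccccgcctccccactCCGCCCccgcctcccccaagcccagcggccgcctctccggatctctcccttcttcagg
Gad2: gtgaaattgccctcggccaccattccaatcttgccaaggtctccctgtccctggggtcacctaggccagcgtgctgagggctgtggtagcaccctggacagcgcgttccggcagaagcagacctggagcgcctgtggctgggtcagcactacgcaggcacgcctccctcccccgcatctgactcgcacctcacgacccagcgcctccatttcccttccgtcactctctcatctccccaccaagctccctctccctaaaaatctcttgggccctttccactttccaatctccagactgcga
Reln: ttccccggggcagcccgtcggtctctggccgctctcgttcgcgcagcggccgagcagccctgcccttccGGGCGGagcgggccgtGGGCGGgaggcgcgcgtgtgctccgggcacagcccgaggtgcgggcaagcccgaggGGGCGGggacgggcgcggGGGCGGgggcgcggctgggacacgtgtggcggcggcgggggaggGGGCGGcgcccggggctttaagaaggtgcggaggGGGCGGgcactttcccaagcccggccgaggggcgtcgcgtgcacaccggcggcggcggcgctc
GGGCGG, read on both strands, occurred 1 time in the Gad1 window, 0 times in the Gad2 window and 6 times in the Reln window, and at least once in 35.7% of 32851 mouse promoters of that length. TATAAA occurred 1 time in the Gad1 window and in neither other window (13.6% of promoters). CCAAT occurred 2 times in the Gad2 window and in neither other window (37.4% of promoters), both motifs also read on both strands. These motifs share no letters with each other here. The Reln window held 47 CG dinucleotides, more than 98.6% of promoters, against 21 for Gad1, 14 for Gad2 and a median of 7. The 3 windows thus had no searched motif in common. The arrays measured RNA only, and these matches describe letters, not binding.

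Gad2 read 9.93, 10.05, 9.94 and 9.95 in naive C57BL/6 mice and 10.18, 10.25, 10.40 and 10.34 in naive arrays labelled TNF knockout. After stroke it read 9.94, 10.19, 10.20 and 10.00 against 10.21, 10.30, 10.32 and 10.31. All knockout-labelled arrays were above all C57BL/6 arrays of the same condition, by a narrow margin after stroke. The difference (± SE) in naive mice was 0.32 ± 0.08 (limma, adjusted p = 0.078), and after stroke it was 0.20 ± 0.08 (adjusted p = 0.33). Over both conditions it was 0.26 ± 0.06, a level 20.1% higher (adjusted p = 0.016). Within the prefixes Gad2 was above the C57BL/6 mean of its condition by 0.31 (KL76) and 0.37 (KL82) in naive arrays, and by 0.13 and 0.23 after stroke. Stroke left it at 0.05 ± 0.06 over both labels (95% interval -0.06 to 0.17).

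Gad1 followed the same order with more overlap. Naive arrays read 11.08, 10.89, 10.98 and 10.98 in C57BL/6 mice and 11.02, 11.16, 11.32 and 11.41 under the knockout label. Stroke arrays read 10.87, 10.98, 11.14 and 10.89 against 11.08, 11.17, 11.32 and 11.24. In each condition 1 knockout-labelled array lay below the highest C57BL/6 array. Over both conditions the difference was 0.24 ± 0.06 (limma, adjusted p = 0.054). It did not pass the threshold, and passed it under 6 of the 8 other settings and in 3 of 16 fits with 1 array removed. Slc32a1, the vesicular GABA transporter carried by the same neurons, read 9.19 to 9.27 and 9.02 to 9.25 in naive and stroke C57BL/6 arrays and 9.05 to 9.33 and 9.02 to 9.25 under the knockout label. Its difference between labels was -0.01 ± 0.06, with a 95% interval of -0.13 to 0.10 that lies below the differences of Gad1 and Gad2. Whether the genes differ from each other was not tested.

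Reln had the largest stroke change of the inhibitory markers in C57BL/6 mice and over both labels. Among knockout-labelled arrays Pvalb had the lower change, at -0.18 against -0.12. In C57BL/6 mice it read 8.73, 8.47, 8.47 and 8.34 in naive arrays and 7.88, 8.29, 8.33 and 8.01 after stroke. Under the knockout label it read 8.69, 8.70, 8.66 and 8.55, then 8.58, 8.52, 8.50 and 8.51. The lowest naive C57BL/6 array lay just above the highest stroke array, with 2 of the stroke arrays well below it, whereas 1 naive array under the knockout label lay within the range of the stroke arrays. Stroke against naive was -0.38 ± 0.10 in C57BL/6 mice, a change of -22.9% (limma, adjusted p = 0.061), and -0.12 ± 0.10 under the knockout label (adjusted p = 0.84). Neither passed, and the difference between these changes, 0.25 ± 0.14, did not pass either (adjusted p = 0.70). Over both labels the stroke change was -0.25 ± 0.07 (adjusted p = 0.064).

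Between labels the naive groups differed in Reln by 0.15 ± 0.10 (limma, adjusted p = 0.47) and the stroke groups by 0.40 ± 0.10 (adjusted p = 0.087). Over both conditions it was 0.27 ± 0.07 higher under the knockout label, or 20.9% (adjusted p = 0.043). The call was lost in 13 of 16 fits with 1 array removed (adjusted p 0.023 to 0.088 over the 16), while the difference stayed at 0.23 to 0.31, and it was lost with quantile normalization (0.064). Among those fits it was kept without C57BL/6 naive 1, C57BL/6 stroke 2 or C57BL/6 stroke 3. Within the prefixes Reln was above C57BL/6 by 0.18 (KL76) and 0.05 (KL82) in naive arrays, and by 0.45 and 0.38 after stroke.

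The cerebellar genes are given here beside Reln. Naive C57BL/6 array 1, the one high in cerebellar genes, also had the highest Reln of all arrays. Without it the stroke change of Reln in C57BL/6 mice was -0.30 (limma, adjusted p = 0.17), over both labels it was -0.21 (0.12), and the difference between labels over both conditions was 0.31 (0.023). With all arrays, Gabra6, Cbln3 and Car8 differed after stroke by -0.41, -0.45 and -0.35 over both labels, and between labels by -0.62, -0.28 and -0.27, none past the threshold in limma. Of the 6 cerebellar genes 5 lay below 0 for stroke (all genes 51%) and 6 for the genotype label (all genes 52.8%). They were singled out after array 1 was seen to be highest in each, and that array is in the baseline of both comparisons. The choice itself favours values below 0, so these counts are no test of the genes. The 26 measured genes of other brain regions, which include the cerebellar ones, had medians of -0.06 and 0.04, with 18 and 12 below 0. The highest differences between labels in that list were 0.60 (Tph2), 0.50 (Slc6a3) and 0.30 (Pmch), opposite in sign to the cerebellar genes. Only Wfs1, a gene of hippocampal and other forebrain neurons, passed for stroke, at 0.36 ± 0.06 (adjusted p = 0.0013), and 0 passed between labels in limma, with 7 at an unadjusted p under 0.05. Summed, that list read 4562 to 5205 in naive and 4452 to 4725 in stroke C57BL/6 arrays, and 4577 to 5222 and 4739 to 5100 under the knockout label. Beyond leaving out that array, the part of RNA from other regions in the Reln and Gad2 differences was not tested.

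**Figure D4:**
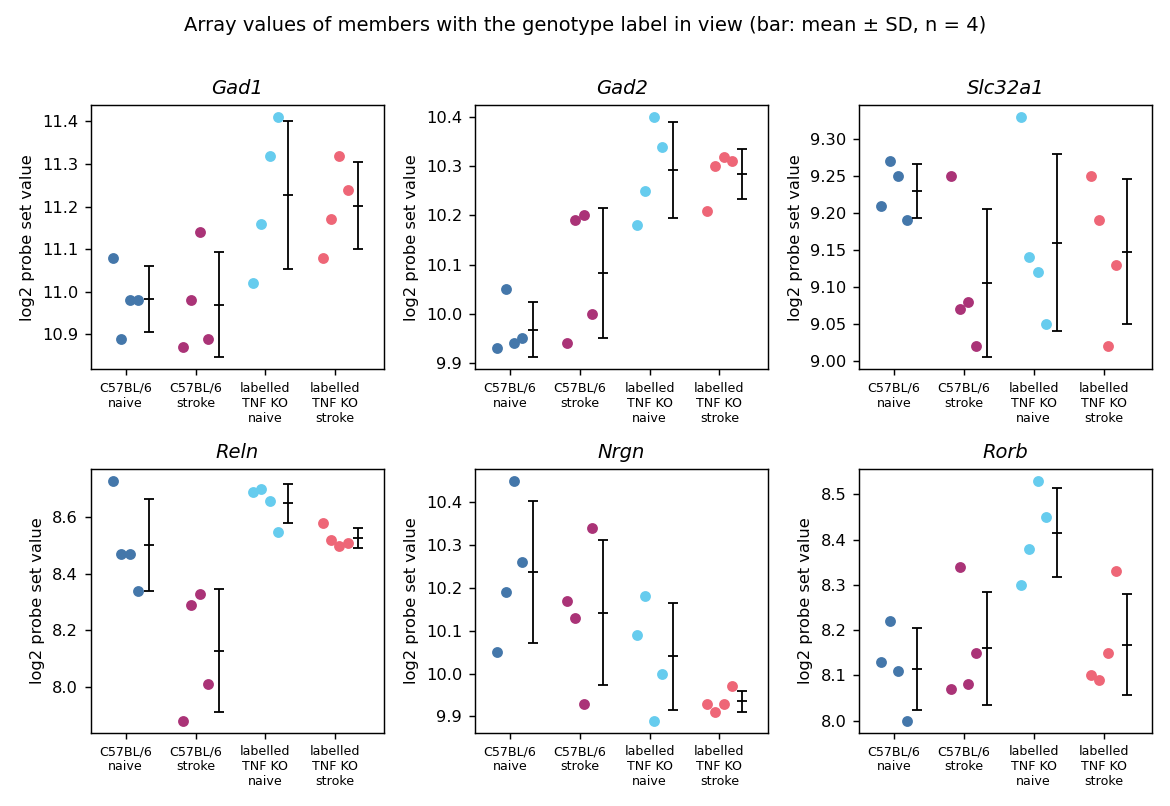
Log2 probe set values (vertical axes, each gene on its own scale) of Gad1, Gad2, Slc32a1, Reln, Nrgn and Rorb in the 4 groups. Each point is 1 array, and bars show the mean ± SD with n = 4. Gad2 is higher in all arrays labelled TNF knockout than in the C57BL/6 arrays of the same condition, Slc32a1 is not, and the C57BL/6 stroke arrays of Reln run down to 7.88.

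Oligodendrocyte genes moved with the genotype label as well. Of 12 measured, 12 lay below 0 in the arrays labelled TNF knockout over both conditions (all genes 52.8%), with a median of -0.25. In limma 4 passed, where 1.26% of all genes were lower past the threshold: Cnp, Cldn11 and Trf, at -0.37, -0.44 and -0.38, and Mag at -0.27. All 4 serve myelin or the cells that make it. The summed level of all 12 was 9927 to 11827 in naive and 10232 to 12238 in stroke C57BL/6 arrays, against 9041 to 9820 and 7702 to 9147 under the knockout label. The general neuron list differed between labels by a median of 0.02 with 0 of 18 past the threshold in limma. At an unadjusted p under 0.05 there was 1 (all genes 19.4%). The part of oligodendrocyte RNA in the differences of Gad2 and Reln was not tested.

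The markers of inhibitory classes gave smaller values. Pvalb encodes the calcium-binding protein of fast-spiking basket cells. It read 8.54, 8.38, 8.45 and 8.62 in naive and 8.20, 8.09, 8.16 and 8.62 in stroke C57BL/6 arrays. Under the knockout label it read 8.38, 8.41, 8.70 and 8.74, then 8.24, 8.24, 8.42 and 8.61. In C57BL/6 mice 3 stroke arrays lay below all naive arrays and the fourth equalled the highest. The stroke change was -0.21 ± 0.08 over both labels (limma, adjusted p = 0.22). Npy, the gene of neuropeptide Y, read 8.95, 9.38, 9.40 and 9.28 in naive and 9.41, 8.85, 8.91 and 8.95 in stroke C57BL/6 arrays. Its knockout-labelled arrays read 9.16, 9.30, 8.86 and 9.29, then 9.18, 8.98, 8.98 and 9.34. Low and high values occurred in every group, and the stroke change was -0.13 ± 0.09 over both labels (adjusted p = 0.55).

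The other inhibitory markers overlapped between all groups. Sst, the gene of somatostatin, lay between 10.18 and 10.87 on all arrays, and its stroke change was -0.05 ± 0.10 over both labels. Vip, of vasoactive intestinal peptide, lay between 5.94 and 6.40, and Calb2, of calretinin, between 7.92 and 8.42. The mean of Vip was 6.19 and the median over genes 6.39. Whether Vip lay above background was not tested, so its small change may say little. Lhx6, a transcription factor of interneurons born in the medial ganglionic eminence, lay between 6.52 and 7.02. After stroke their changes over both labels were -0.08, -0.07 and 0.01, with 95% intervals inside -0.22 to 0.15.

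Lamp5 had the largest stroke change of the cortical members and of all members over both labels. It encodes a membrane protein of endosomes found in cortical excitatory neurons of upper layers and in a class of inhibitory neurons. It read 9.84, 9.96, 10.08 and 10.43 in naive and 9.84, 9.69, 9.61 and 10.04 in stroke C57BL/6 arrays. Knockout-labelled arrays read 9.87, 10.02, 9.83 and 10.03, then 9.41, 9.59, 9.78 and 9.85. The groups overlapped in both labels. The change was -0.28 ± 0.12 in each label and -0.28 ± 0.09 over both, a change of -17.7%, which did not pass (limma, adjusted p = 0.093).

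Cux2 and Cux1, homeobox factors of upper-layer neurons, differed in where their low arrays lay. Cux2 read 7.45, 7.46, 7.27 and 7.41 in naive and 7.42, 7.28, 7.04 and 7.09 in stroke C57BL/6 arrays. Under the knockout label it read 7.41, 7.37, 7.41 and 7.30, then 7.46, 7.29, 7.39 and 7.19. In C57BL/6 mice 2 stroke arrays lay below all naive arrays, and the groups overlapped. Its change was -0.19 ± 0.09 in C57BL/6 mice (limma, adjusted p = 0.28) and -0.04 ± 0.09 under the knockout label (adjusted p = 0.97).

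Cux1 read 7.29, 7.39, 7.20 and 7.28 in naive and 7.29, 7.24, 7.35 and 7.42 in stroke C57BL/6 arrays. Under the knockout label it read 7.47, 7.50, 7.53 and 7.36, then 7.26, 7.22, 7.20 and 7.28. Only the knockout-labelled groups were apart, and the naive one was the highest of the 4 groups. Its change was 0.04 ± 0.07 in C57BL/6 mice and -0.22 ± 0.07 under the knockout label (limma, adjusted p = 0.84 and 0.27).

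Rorb, the nuclear receptor of layer 4 neurons, like Cux1 had its highest group mean in the naive arrays labelled TNF knockout, at 8.41 (7.46 for Cux1). C57BL/6 arrays read 8.13, 8.22, 8.11 and 8.00 naive and 8.07, 8.34, 8.08 and 8.15 after stroke. Knockout-labelled arrays read 8.30, 8.38, 8.53 and 8.45 naive and 8.10, 8.09, 8.15 and 8.33 after stroke. The naive knockout-labelled group stood above the naive C57BL/6 group without overlap, by 0.30 ± 0.08 (limma, adjusted p = 0.10), and after stroke the labels differed by 0.01 ± 0.08. The naive and stroke groups under the knockout label overlapped, and the stroke change there was -0.25 ± 0.08 (adjusted p = 0.33).

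Bcl11b marks deep-layer neurons that project out of the cortex, and striatal projection neurons as well. It read 7.91, 8.03, 7.92 and 8.09 naive and 7.94, 8.09, 8.01 and 7.98 after stroke in C57BL/6 mice. Knockout-labelled arrays read 8.25, 8.13, 8.33 and 8.07, then 8.04, 7.97, 7.94 and 8.12. Of the naive knockout-labelled arrays 3 were above all others of the gene. The naive groups differed between labels by 0.21 ± 0.08 (limma, adjusted p = 0.19) and the stroke groups by 0.01 ± 0.08.

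Tbr1, Fezf2 and Neurod6, transcription factors of excitatory cortical neurons, overlapped between groups, with values of 8.31 to 8.74, 7.60 to 8.02 and 7.56 to 8.31. With Cux1, Rorb and Bcl11b they made up 6 factors whose stroke change lay above 0 in C57BL/6 mice, at 0.02 to 0.18, and below 0 under the knockout label, at -0.25 to -0.09. Cux2 was the exception among the cortical factors. The difference of the stroke changes between labels was -0.29 ± 0.12 for Rorb (limma, adjusted p = 0.62), -0.27 ± 0.13 for Tbr1 (0.67) and -0.26 ± 0.10 for Cux1 (0.59). These 3 were the members at an unadjusted p under 0.05 in that comparison, in which 0 of 28 members and 0% of all genes passed in limma and 3.73% of all genes were lower at an unadjusted p under 0.05. The median difference of the cortical members was -0.17, against 0.00 over all genes. It was -0.06 over the 20 further cortical genes and -0.20 over the oligodendrocyte genes. The choroid plexus and ependyma list and the activated microglia and macrophage list each had -0.17. Medians of the remaining lists ran from -0.09 (resting astrocyte) to 0.09 (reactive astrocyte). Within the knockout label the median stroke difference of the cortical members was -0.22 in KL76, which holds 1 stroke array, and -0.06 in KL82, which holds 1 naive array.

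The excitatory synapse genes Nrgn and Slc17a7 had stroke changes below 0 in both labels, at -0.09 in C57BL/6 mice for each and at -0.10 and -0.04 under the knockout label. Nrgn encodes neurogranin, a calmodulin-binding protein of dendritic spines. It read 10.05, 10.19, 10.45 and 10.26 naive and 10.17, 10.13, 9.93 and 10.34 after stroke in C57BL/6 mice. Knockout-labelled arrays read 10.09, 10.18, 9.89 and 10.00, then 9.93, 9.91, 9.93 and 9.97, lower on the whole with overlap in both conditions. It was -0.20 ± 0.07 under the knockout label over both conditions (limma, adjusted p = 0.11), and -0.10 ± 0.07 after stroke over both labels. Slc17a7, the vesicular glutamate transporter VGLUT1 of cortical neurons, read 10.96 to 11.32 over all arrays, with a stroke change of -0.06 ± 0.06 and an interval of -0.19 to 0.06.

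**Figure D5:**
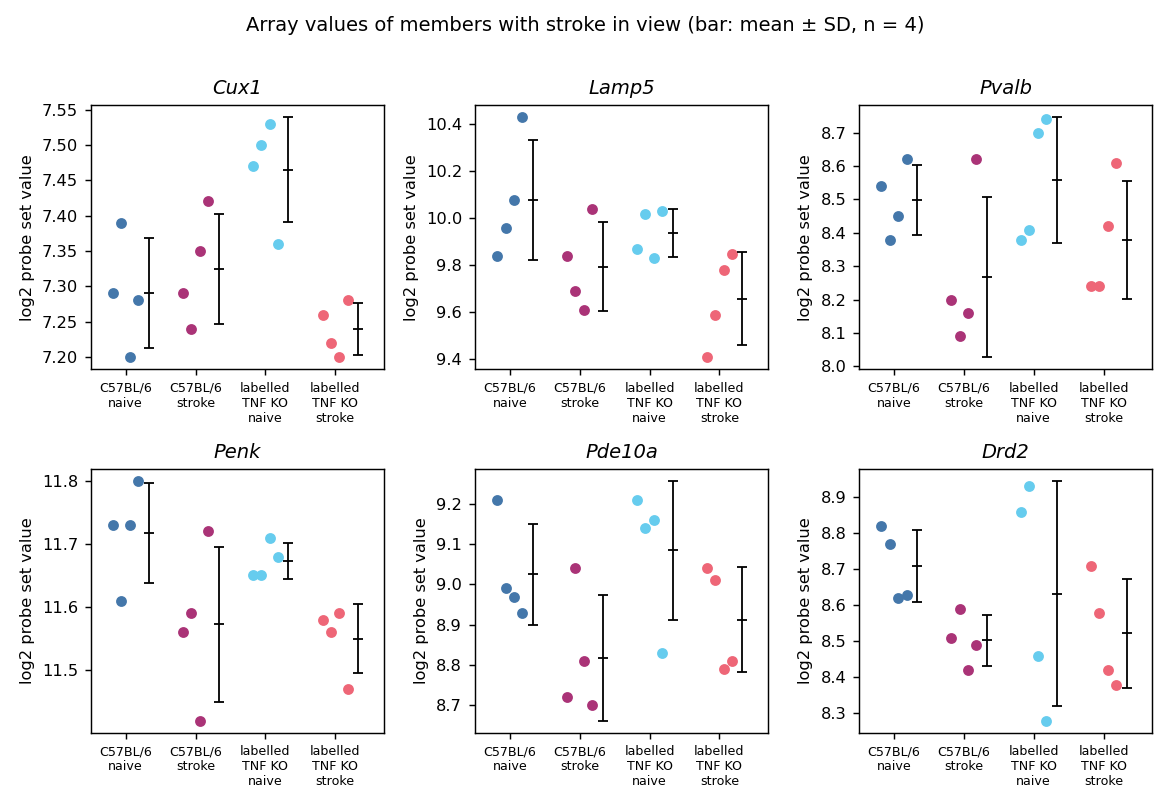
Log2 probe set values (vertical axes, each gene on its own scale) of Cux1, Lamp5, Pvalb, Penk, Pde10a and Drd2 in the 4 groups. Each point is 1 array, and bars show the mean ± SD with n = 4. Stroke and naive arrays are apart for Drd2 in C57BL/6 mice and for Cux1 and Penk under the knockout label, and overlap elsewhere.

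Of the striatal markers, those of D2 receptor neurons and those of D1 receptor neurons can be set side by side. Penk encodes the enkephalin precursor of D2 neurons and is also made outside the striatum. It read 11.73, 11.61, 11.73 and 11.80 naive and 11.56, 11.59, 11.42 and 11.72 after stroke in C57BL/6 mice. Knockout-labelled arrays read 11.65, 11.65, 11.71 and 11.68, then 11.58, 11.56, 11.59 and 11.47. Only under the knockout label were the groups apart, and the change over both labels was -0.13 ± 0.05 (limma, adjusted p = 0.20).

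Drd2, the D2 dopamine receptor, read 8.82, 8.77, 8.62 and 8.63 naive and 8.51, 8.59, 8.42 and 8.49 after stroke in C57BL/6 mice. Knockout-labelled arrays read 8.86, 8.93, 8.46 and 8.28, then 8.71, 8.58, 8.42 and 8.38. The C57BL/6 groups were apart, while the naive knockout-labelled arrays spread beyond both of them (SD 0.31). The change was -0.21 ± 0.12 in C57BL/6 mice (limma, adjusted p = 0.38) and -0.16 ± 0.08 over both labels (adjusted p = 0.37). The D1 receptor gene Drd1 lay between 8.64 and 8.95 on all arrays, with a stroke change of 0.05 ± 0.05 and an interval of -0.07 to 0.16. The difference between Penk or Drd2 and Drd1 was not tested.

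Pdyn, the dynorphin precursor of D1 neurons, read 6.93, 6.85, 7.16 and 6.94 naive and 6.90, 6.93, 7.05 and 7.19 after stroke in C57BL/6 mice. Knockout-labelled arrays read 6.96, 6.97, 7.42 and 7.04, then 7.02, 7.37, 6.99 and 7.26. All 4 groups overlapped, and the stroke change was 0.06 ± 0.08 over both labels (limma, adjusted p = 0.80). Tac1, the substance P precursor of the same neurons, lay between 8.73 and 9.22, with a change of -0.02 ± 0.07.

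Pde10a and Rgs9 act in both kinds of projection neuron, the first as a phosphodiesterase for cyclic nucleotides and the second as a brake on G protein signals. Pde10a read 9.21, 8.99, 8.97 and 8.93 naive and 8.72, 9.04, 8.81 and 8.70 after stroke in C57BL/6 mice. Knockout-labelled arrays read 9.21, 9.14, 9.16 and 8.83, then 9.04, 9.01, 8.79 and 8.81. In both labels 1 array broke the separation, and the change over both was -0.19 ± 0.07 (limma, adjusted p = 0.18).

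Rgs9 read 8.99, 9.05, 9.08 and 8.96 naive and 8.79, 8.98, 9.00 and 9.14 after stroke in C57BL/6 mice. Knockout-labelled arrays read 9.15, 9.14, 9.16 and 9.13, then 9.07, 9.12, 9.13 and 9.15. The naive knockout-labelled arrays were tightly grouped above the naive C57BL/6 arrays. The labels differed by 0.13 ± 0.05 over both conditions (limma, adjusted p = 0.17). Ppp1r1b, the gene of the dopamine-regulated phosphatase inhibitor DARPP-32, lay between 9.50 and 9.87, with a stroke change of 0.02 ± 0.06. Within the knockout label the median stroke difference of the striatal members was -0.09 in KL76 and 0.01 in KL82, and that of the inhibitory members was -0.10 and -0.11.

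Wider lists of the same neuron classes held a few genes that did pass over both labels after stroke, each lower, where 1.03% of all genes were lower past the threshold. Of 20 further cortical excitatory genes 2 fell: Slc30a3, the transporter that loads zinc into glutamate vesicles, by 0.45 ± 0.06 (limma, adjusted p = 0.00019), and the somatostatin receptor gene Sstr2 by 0.26 ± 0.07 (0.046). Of 22 further inhibitory genes 2 fell: Gabrd, the delta subunit of the GABA-A receptor, by 0.30 ± 0.06 (0.014), and Kcnc1, a potassium channel of fast-spiking neurons, by 0.23 ± 0.06 (0.029). Rasgrp2, a Rap1 activator of striatal neurons, fell by 0.26 ± 0.07 (0.046), as the only one of 27 further striatal genes. Of 18 general neuron genes 1 fell, the neuronal tubulin Tubb3, by 0.27 ± 0.06 (0.016). Slc30a3 and Gabrd also passed in C57BL/6 mice alone, at -0.58 ± 0.09 and -0.39 ± 0.09. The medians of these 4 lists were -0.05, -0.07, -0.04 and -0.03.

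Between genotype labels 2 of the 27 further striatal genes rose under the knockout label over both conditions, where 1.35% of all genes were higher past the threshold. They were Ptpn5, a striatal tyrosine phosphatase, at 0.20 ± 0.05 (limma, adjusted p = 0.031), and the kappa opioid receptor gene Oprk1 at 0.29 ± 0.08 (0.046). None of the 20 further cortical, 22 further inhibitory or 18 general neuron genes passed in that comparison in limma, with 3, 6 and 1 at an unadjusted p under 0.05, where 19.4% of all genes were. Of the 19 activated microglia and macrophage genes Lpl, a lipase, was higher under the knockout label over both conditions, at 0.93 ± 0.08 (adjusted p = 1e-06), and Cd68, a lysosomal protein of phagocytes, was lower there after stroke, at -0.38 ± 0.08 (adjusted p = 0.034).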

How the data were processed

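Whole-brain RNA was measured on Affymetrix Mouse Gene 1.0 ST arrays, 1 per sample. The authors deposited log2 probe set summaries. Per the submitters' processing notes the tools were Partek, RMA, GCRMA and GCOS, with no version or role, and the array medians show that the values had been brought to a common level. Detection p-values and scan dates were not used here.

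Of 28944 probe sets, 21789 had 1 symbol in GEO's platform annotation, 1621 several and 5534 none. For the 999 genes with several single-symbol probe sets the one with the highest mean was kept, giving 19938 genes, with no filter on dim ones. The 4 group means were fitted to the 16 arrays with limma 3.58.1 in R 4.3.3 (12 residual and 7.52 prior degrees of freedom). The 7 comparisons were stroke and genotype label each within the other's levels and averaged over them, and a comparison of both stroke changes. P-values are two-sided and Benjamini-Hochberg adjusted over all 19938 genes, with a threshold of 0.05. Errors of differences are SE. The number of arrays limits the precision.

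The members and lists were chosen with earlier results of these data known. All measured members are named. Array values are given for members past the threshold in any comparison and for the 3 with the smallest p per subset, for stroke and for genotype label. Genes of other lists are named from those past the threshold in the averaged comparisons, up to 4 per list by smallest p. Slc30a3, Gabrd and Cd68 are also given within a group. The 6 cerebellar genes, Tph2, Slc6a3, Pmch and the check of naive C57BL/6 array 1 were added after their values were seen. Alternatives were median centring, quantile normalization, a filter on the lowest 33.3% of genes, averaged probe sets, trended and robust variance, array weights, a threshold of 0.01, the replicate block, the prefix as a term where it could be fitted, and leaving out each array. Comparisons within a label or a condition were also fitted on only the groups compared. The scripts were tested on simulated data. Promoters came from RefSeq (GRCm38.p6), where 25 of 29 members had an entry. Figures used matplotlib 3.10.9, numpy 2.4.6 and pandas 2.3.3 in Python 3.11.15.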

Additional observations from a re-analysis of the deposited data

Results flagged for a closer look

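Of 112 groups of 4 arrays (28 members in 4 groups), 3 held 1 array far from the other 3, by Dixon's criterion on the gap within the group's range. Chance gives about 1 in 20 groups. Neurod6 read 7.69 in TNF knockout-labelled stroke array 1, against 7.88 to 7.89 in the others. Gad2 read 10.05 in naive C57BL/6 array 2, against 9.93 to 9.95. Lhx6 read 6.53 in TNF knockout-labelled naive array 4, against 6.84 to 6.89.

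Of 24 groups of the 6 cerebellar genes, 7 held such an array, 4 of them naive C57BL/6 array 1. These genes were singled out after that array was seen to be highest in each. The rate given by chance does not apply to them, and the count is no test. On it Gabra6 read 7.99, Cbln1 8.24, Cbln3 7.45 and Car8 9.13, against highest values of 4.48, 7.08, 5.30 and 7.03 in the other 3. Car8 read 7.31 in C57BL/6 stroke array 4, against 6.91 to 6.94. Pcp2 read 5.05 in TNF knockout-labelled stroke array 3, against 5.29 to 5.30, and Barhl1 read 4.66 in naive array 2 of that label, against 5.18 to 5.22.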

How the results depend on the processing

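Gad2 stayed past the threshold over both conditions in all 16 fits that left out 1 array (adjusted p 0.014 to 0.041) and in the 7 other settings at 0.05, and no member's call reversed. Members past the threshold numbered 1 to 3 in that comparison when 1 array was left out, against 2, and 0 at a threshold of 0.01. For stroke in C57BL/6 mice 1 member, Reln, passed with quantile normalization, with the dimmest 33.3% of genes left out and with trended and robust variance, against 0. Fitted on only the groups compared, Reln had an adjusted p of 0.19 in limma, its highest among these settings. For stroke over both labels 1 passed without the dimmest genes (Reln), 2 with trended and robust variance (Lamp5 and Reln), 1 with array weights (Reln), and 0 to 1 when 1 array was left out. Without C57BL/6 naive 4, C57BL/6 stroke 2 or C57BL/6 stroke 3 Reln was the 1 that passed, at adjusted p of 0.045, 0.046 and 0.042. Between labels 1 passed without the dimmest genes and with trended and robust variance, Gad2 in naive mice and Reln after stroke. The cause was not tested, beyond the fewer genes tested when these genes are left out. With the replicate block 1 member passed for stroke over both labels (Lamp5), 1 between labels in naive mice (Gad2), and Gad1 passed over both conditions (adjusted p = 0.039). Lamp5 had an adjusted p of 0.028 with the block, against 0.093. Of the 24 correlations between same-numbered arrays 9 were over 0.1 (-0.07 to 0.34), so the numbers were not taken as pairs, although 3 of the 4 between naive and stroke arrays labelled TNF knockout were (0.34, 0.14 and 0.22, the other 0.04), and 7 of 16 arrays correlated best with their own number.

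The median of the cortical members between labels in naive mice was 0.05 with quantile normalization, against 0.10, and their difference of stroke changes was -0.12 with it and -0.21 to -0.10 without single arrays, against -0.17. The inhibitory median of that difference was -0.08 with the prefix as a term and -0.05 to 0.06 without single arrays, against 0.02. Without single arrays the striatal median for stroke in C57BL/6 mice ran from -0.09 (without stroke 4) to 0.04 (without stroke 1), against -0.03, and the inhibitory median between labels after stroke from 0.04 to 0.17, against 0.10.

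Counts over all genes ran, over the other settings, from 76 to 559 for stroke in C57BL/6 mice (334 as reported), 54 to 212 under the knockout label (128), 217 to 768 over both (559), 20 to 185 between labels in naive mice (77), 36 to 164 after stroke (87) and 122 to 759 over both (522). Without single arrays they ran from 107 to 639, 69 to 145, 369 to 629, 23 to 138, 47 to 120 and 252 to 620. The difference of the stroke changes gave 0 to 4, against 0 in limma with 1480 genes at an unadjusted p under 0.05.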
